A study of Homo sapiens with 9 samples.

Results

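Genes of glutathione synthesis, cystine import and glutathione use were followed through 9 cultures of HuH-7, an established human hepatocellular carcinoma cell line, in a study of liver cell toxicity. The 10 genes were taken by symbol: SLC7A11, SLC3A2, GCLC, GCLM, GSS, GSR, GPX1, GPX2, GPX4 and GGT1. Each symbol matched 1 of the 63677 Ensembl identifiers in the count files, and all 10 were among the 18237 genes that passed the filter on low counts. The control culture was left untreated. Of the others, 1 received acetaminophen at 10 mM, 1 received exosomes prepared from 1 ml of serum per a set number of cells, 1 received both of these, 1 received caffeine at 2 mM and 1 received caffeine with acetaminophen at the same concentrations. Arsenic was given to the last 3, at 5 µM, at 15 µM, and at 5 µM together with 5 µM copper. Each condition is 1 library of ribosomal RNA-depleted total RNA from 1 line, and how long the cells were exposed is not given in the sources used here. The genes are SLC7A11 (ENSG00000151012) on chromosome 4, SLC3A2 (ENSG00000168003) on chromosome 11, GCLC (ENSG00000001084) on chromosome 6, GCLM (ENSG00000023909) on chromosome 1, GSS (ENSG00000100983) on chromosome 20, GSR (ENSG00000104687) on chromosome 8, GPX1 (ENSG00000233276) on chromosome 3, GPX2 (ENSG00000176153) on chromosome 14, GPX4 (ENSG00000167468) on chromosome 19 and GGT1 (ENSG00000100031) on chromosome 22.

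Glutathione is the most abundant small thiol of liver cells and is made from glutamate, cysteine and glycine. Cysteine usually limits its synthesis, and cells can obtain it by importing cystine through the exchanger formed by SLC7A11 and SLC3A2 and reducing it inside the cell. Glutamate-cysteine ligase, made of a catalytic subunit (GCLC) and a modifier subunit (GCLM), carries out the committed step, and glutathione synthetase (GSS) adds glycine. Glutathione peroxidases oxidise glutathione while reducing peroxides, glutathione reductase (GSR) restores the reduced form with NADPH, and gamma-glutamyltransferase 1 (GGT1) cleaves extracellular glutathione. In hepatocytes glutathione also captures the reactive metabolite of acetaminophen and binds trivalent arsenic. The transcription factor NRF2 controls several of these genes through antioxidant response elements, and ATF4 controls SLC7A11 during amino acid shortage.

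Promoter sequence was available from RefSeq (GRCh38.p14) for 7 of the 10 genes, in 12 windows of the 250 bases before a gene start. These windows are shown for 4 genes because GCLM, SLC3A2 and GPX2 hold the letters of an antioxidant response element core while GCLC, the partner of GCLM, does not hold them in this window. The letters searched were TGACNNNGC on both strands, and a match is printed in capitals. The GCLM window is chr1:93909431-93909680 on the minus strand, with its match beginning 34 bases before the gene start. The SLC3A2 window is chr11:62881449-62881698 on the plus strand, with its match beginning 37 bases before, and it is 1 of 3 windows of that gene. The GPX2 window is chr14:64942746-64942995 on the minus strand, with its match beginning 122 bases before. The GCLC window is chr6:53545102-53545351 on the minus strand. All are written 5′ to 3′ along the strand of the gene.
GCLM: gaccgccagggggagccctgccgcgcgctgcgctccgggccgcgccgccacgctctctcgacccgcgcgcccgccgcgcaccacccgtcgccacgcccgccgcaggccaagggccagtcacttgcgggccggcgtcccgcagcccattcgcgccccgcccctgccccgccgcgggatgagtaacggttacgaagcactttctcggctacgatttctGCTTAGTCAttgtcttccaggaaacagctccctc
SLC3A2: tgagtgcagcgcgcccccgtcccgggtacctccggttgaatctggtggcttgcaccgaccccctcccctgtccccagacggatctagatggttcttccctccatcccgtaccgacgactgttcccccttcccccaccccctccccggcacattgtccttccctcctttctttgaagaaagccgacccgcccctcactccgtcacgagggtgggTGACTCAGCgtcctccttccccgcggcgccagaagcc
GPX2: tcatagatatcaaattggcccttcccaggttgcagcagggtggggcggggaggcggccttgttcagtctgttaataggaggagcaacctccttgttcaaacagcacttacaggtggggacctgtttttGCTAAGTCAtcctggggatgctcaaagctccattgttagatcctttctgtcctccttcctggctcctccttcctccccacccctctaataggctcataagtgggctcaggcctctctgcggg
GCLC: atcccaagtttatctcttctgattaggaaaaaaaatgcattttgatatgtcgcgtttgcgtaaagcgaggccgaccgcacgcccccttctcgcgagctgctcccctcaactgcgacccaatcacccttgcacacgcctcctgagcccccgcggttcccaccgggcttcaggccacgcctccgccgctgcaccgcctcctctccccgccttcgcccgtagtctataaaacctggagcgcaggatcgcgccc
In the GCLM and GPX2 windows the match lies on the opposite strand and reads in reverse complement. Of the 2 GGT1 windows, 1 also held a match, 29 bases before its start, so 4 of 12 windows (33.3%) held these letters against 3830 of 35116 promoter windows of all genes (10.9%). A second motif, TGATGNAA, the core bound by C/EBP and ATF dimers such as those of ATF4, was in 0 of the 12 windows and in 1104 (3.14%) of all windows. SLC7A11, GSS and GSR had no window, so neither motif was searched for in those genes. Sequence further from the gene starts was not searched, and matches are descriptions of letters, not of bound sites.

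The libraries held 658725 to 8227906 counts on genes, with 951816 in the control. All 9 hepatocyte markers examined (such as ALB, AFP and HNF4A) were detected in every library, with summed levels between 8710 (arsenic 15 µM) and 28300 (acetaminophen) CPM. CPM are counts divided by library size, with library sizes scaled by the TMM method. Markers of leukocytes summed to 0 to 5.09 CPM, those of endothelial cells to 0.371 to 11.2 CPM, those of red cells and platelets to 0 to 0.965 CPM and those of fibroblasts to 27.5 to 63.9 CPM. COL1A2 was the highest fibroblast marker in every library, at 51.1 of the 62.7 CPM in the control. Another of them, DCN, reached at most 1.49 CPM. In bulk RNA, fewer cells of a type and less RNA per cell cannot be told apart. The acetaminophen and arsenic 5 µM libraries stood apart from the rest. Across 10985 genes, the log2 level relative to the mean of the libraries fell with the GC content of the transcript in both (Pearson r = -0.62 and -0.47, against 0.24 in the control), and with arsenic at 5 µM 35.5% of the counts fell on small nucleolar RNAs. In the other direction, the level rose with GC content in the libraries with arsenic and copper (r = 0.42) and with acetaminophen and caffeine (r = 0.38). The members range from 35.4% GC (SLC7A11), 37.3% (GCLM) and 44.3% (GCLC) to 61.7% (GGT1), 62.5% (GPX4) and 64.2% (GPX1), so the main ratios that rest on these libraries are also given after the trends with GC content and length were removed.

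No condition has a replicate, so tests use a model (edgeR's quasi-likelihood test) with 1 term for each agent, and its spread is the departure of the libraries from additive effects. A gene is called at an adjusted p under 0.05 over all 18237 genes. Differences between 2 libraries are given as ratios with exact 95% intervals that cover counting error of PCR reads without molecular tags, not variation between cultures. A gene is described as apart in 2 libraries when the ratio was at least 2 in either direction and the interval excluded 1. The share of all genes apart was counted under this rule before removal of the GC and length trends, not after it.

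With arsenic, SLC7A11, the cystine-carrying subunit of the exchanger, and GCLM, the modifier subunit of the ligase, stood highest above their levels elsewhere, and GSR was higher in all 3 arsenic libraries as well. SLC7A11 rose with arsenic in the model (log2 coefficient 4.09, SE 0.83, adjusted p = 0.014 by edgeR), and it was the 1 member of 10 that passed. Of all genes tested, 0.494% were called for arsenic. At an unadjusted p under 0.05 there were 3 members (SLC7A11, GCLM and SLC3A2) and 9.16% of all genes. The call rests on single libraries: the adjusted p by edgeR was 0.671 without the control, 0.148 without acetaminophen with exosomes and 0.121 without acetaminophen. Over 15 alternatives, of which 12 kept the call, the adjusted p ran from 5.86e-06 (by DESeq2) to 0.671 (by edgeR). The log2 coefficients of the 10 members had a median of 0.95, beside 0.07 over all genes.

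**Figure D1:**
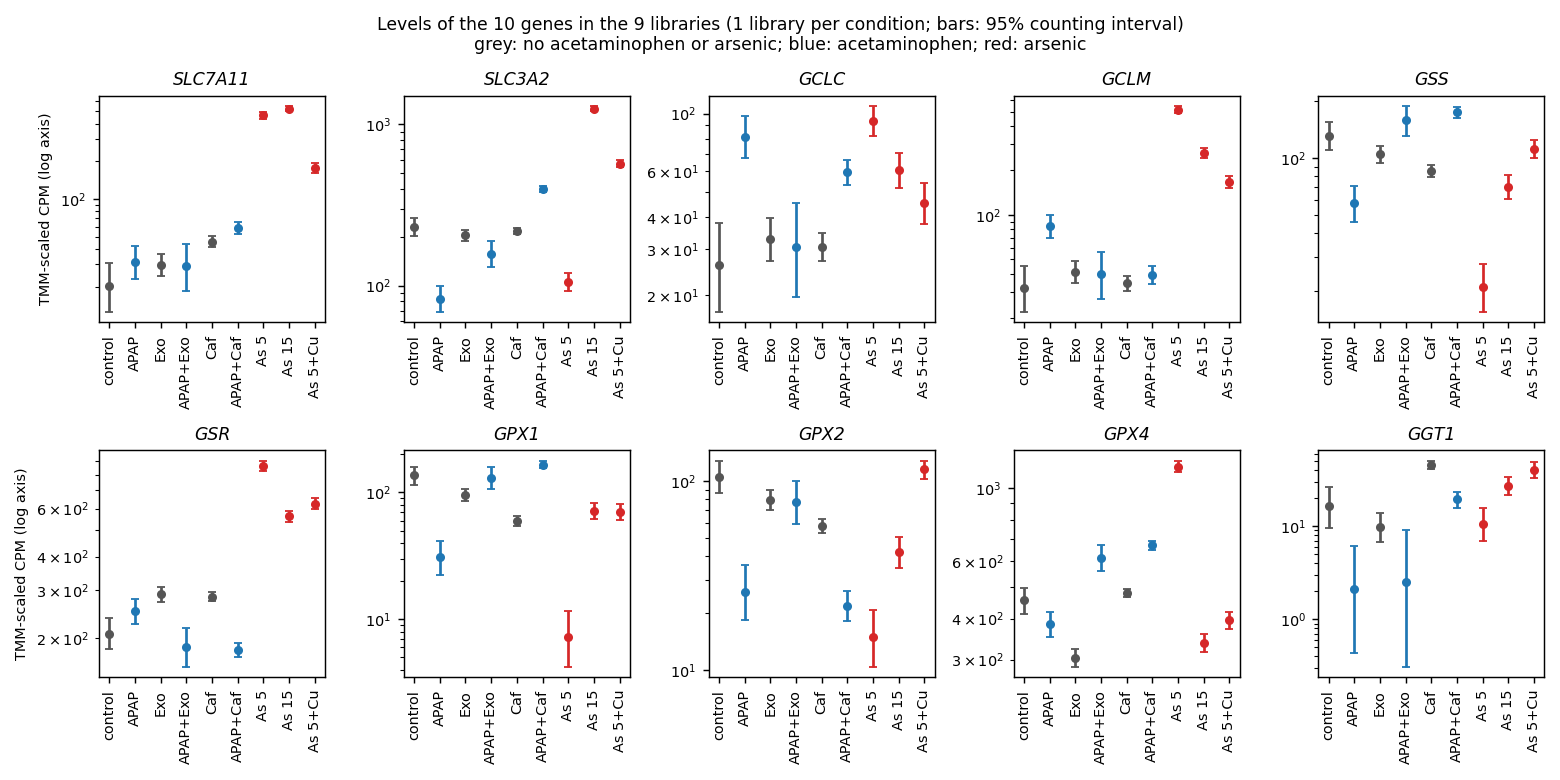
Level of each of the 10 genes (TMM-scaled CPM, log axis) in the 9 libraries, with 95% counting intervals as bars. APAP is acetaminophen, Exo exosomes, Caf caffeine, As arsenic (in µM) and Cu copper. SLC7A11, GCLM and GSR lie higher in the 3 arsenic libraries (red) than in the 6 others, and GPX1 reaches its lowest point, 7.23 CPM, with arsenic at 5 µM.

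SLC7A11 stood at 20.3 CPM in the control, 31.6 with acetaminophen, 29.9 with exosomes, 29.3 with acetaminophen and exosomes, 45.6 with caffeine and 58.6 with acetaminophen and caffeine. In the arsenic libraries it stood at 465 (5 µM), 526 (15 µM) and 178 CPM (copper added to 5 µM). The lowest arsenic library was thus above the highest of the 6 others. Without arsenic, both caffeine libraries were the highest, and caffeine over control gave a ratio of 2.25 (95% interval 1.45 to 3.68).

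The partner subunit SLC3A2, the heavy chain that carries several amino acid exchangers to the cell surface, did not follow the same order. Its level was 232 CPM in the control, 82.8 with acetaminophen, 205 with exosomes, 158 with acetaminophen and exosomes, 218 with caffeine and 397 with acetaminophen and caffeine. With arsenic it was 105 CPM at 5 µM, 1250 CPM at 15 µM and, when copper was added to 5 µM, 571 CPM. The arsenic 5 µM library was therefore below 5 of the 6 libraries without arsenic, and the other two arsenic libraries were above all 6. SLC3A2 was not called for arsenic (log2 coefficient 1.94, SE 0.84, adjusted p = 0.445 by edgeR), but without the arsenic 5 µM library its adjusted p was 0.0185, the lowest in a range up to 0.912 over 15 alternatives. Between the 2 arsenic doses alone, 15 over 5 µM gave a ratio of 11.9 (10.4 to 13.6). Copper added to 5 µM gave 5.42 (4.73 to 6.22).

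The ratio of SLC7A11 to SLC3A2 reads within 1 library and therefore needs no scaling between libraries. Per kilobase of exons it lay between 0.047 (control) and 0.205 (acetaminophen) in the 6 libraries without arsenic. It was 2.37 (2.06 to 2.73) with arsenic at 5 µM, 0.225 (0.212 to 0.239) at 15 µM and 0.167 (0.151 to 0.186) with copper, the last being inside the range of the others. The arsenic 5 µM value was 0.83 after the GC and length trends were removed, while the values at 15 µM and with copper became 0.243 and 0.246. After removal the 6 other libraries ranged from 0.0777 to 0.137, below all 3 arsenic libraries.

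GCLM, which raises the affinity of the ligase for glutamate and relieves its feedback inhibition by glutathione, was at 31.8 CPM in the control, 83.5 with acetaminophen, 40.9 with exosomes, 39.4 with acetaminophen and exosomes, 34.4 with caffeine and 39 with acetaminophen and caffeine. It reached 518 CPM with 5 µM arsenic, 262 with 15 µM and 167 with copper. All 3 arsenic libraries were above the 6 others, and 5 of those 6 lay between 31.8 and 40.9 CPM. GCLM was not called (log2 coefficient 2.78, SE 0.81, adjusted p = 0.12 by edgeR); DESeq2 gave an adjusted p of 0.00789, and edgeR gave 0.0403 without the arsenic 5 µM library and 0.048 without the arsenic 15 µM library. Over its 15 alternatives the adjusted p ran from 0.00789 to 0.748.

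GCLC, the catalytic subunit, varied less. Its levels were 26.1 CPM in the control, 81.4 with acetaminophen, 32.8 with exosomes, 30.5 with acetaminophen and exosomes, 30.7 with caffeine and 59.4 with acetaminophen and caffeine. With arsenic it stood at 94 CPM (5 µM), 60.6 (15 µM) and 45.3 (with copper), within or just above the range of the other libraries. The arsenic coefficient was 0.88 (SE 0.73, adjusted p = 0.786 by edgeR).

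The transcripts of the ligase subunits therefore differed in proportion. Per kilobase of exons, GCLM over GCLC was between 1.05 and 2.06 in the 6 libraries without arsenic. It was 8.78 (7.61 to 10.2) with arsenic at 5 µM, 6.91 (5.84 to 8.22) at 15 µM and 5.87 (4.8 to 7.23) with copper. With the trends removed, the arsenic values were 6.16, 7.55 and 6.6, and the other libraries ranged from 1.29 to 2.04. The arsenic libraries lay apart from the others in both forms.

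**Figure D2:**
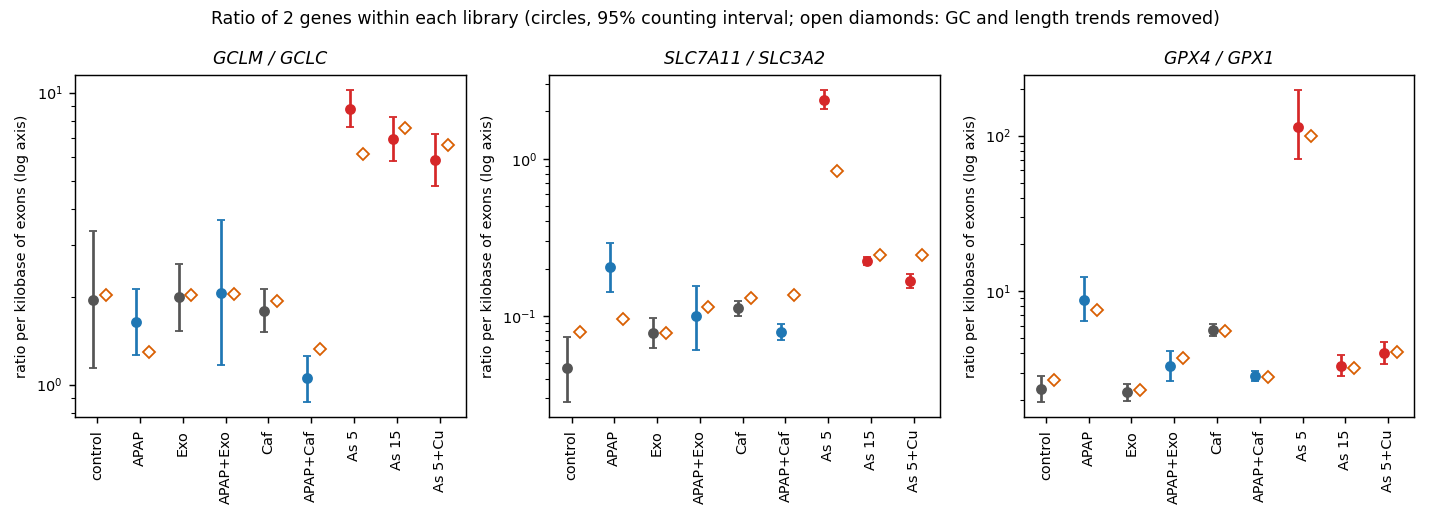
Ratio of 2 genes within each library, per kilobase of exons (log axis), for GCLM over GCLC, SLC7A11 over SLC3A2 and GPX4 over GPX1. Circles carry 95% counting intervals, open diamonds have the GC and length trends removed, and library names are abbreviated as APAP (acetaminophen), Exo (exosomes), Caf (caffeine), As (arsenic) and Cu (copper). GCLM over GCLC lies at 5.87 to 8.78 in the arsenic libraries and at most at 2.06 in the others.

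GSS, which completes glutathione, and GSR, which recycles it, stood on opposite sides of the control with arsenic at 5 µM. GSS was at 131 CPM in the control, 57.6 with acetaminophen, 105 with exosomes, 158 with acetaminophen and exosomes, 85.3 with caffeine and 174 with acetaminophen and caffeine, and at 20.8, 70.3 and 112 CPM in the arsenic libraries at 5 µM, 15 µM and 5 µM with copper. The arsenic 5 µM library was the lowest of the 9, and the other two arsenic libraries lay inside the range of the rest. GSR was at 208 CPM in the control, 251 with acetaminophen, 291 with exosomes, 186 with acetaminophen and exosomes, 285 with caffeine and 181 with acetaminophen and caffeine. Its arsenic levels were 863, 562 and 626 CPM in the same order as for GSS, all above the 6 others, whose highest was 291 CPM. Neither gene was called for arsenic by edgeR (log2 coefficients -0.42, SE 0.68, and 1.37, SE 0.78, with adjusted p = 0.91 and 0.642). Without the control, the GSS coefficient was 1.06.

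Counted over the members, 3 of 10 (SLC7A11, GCLM and GSR) had all 3 arsenic libraries above the 6 others, and 3.9% of all genes tested did. For 0 of 10 members were all 3 below, beside 3.13% of all genes. After removal of the GC and length trends these 3 members still had no overlap: the lowest arsenic level was 202 CPM for SLC7A11, 192 for GCLM and 610 for GSR, and the highest of the others was 74.6, 53.5 and 277 CPM.

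The glutathione peroxidases reduce different peroxides: GPX1 acts on hydrogen peroxide in cytosol and mitochondria, GPX2 is an epithelial form, and GPX4 reduces lipid hydroperoxides in membranes. GPX1 stood at 136 CPM in the control, 30.9 with acetaminophen, 95.6 with exosomes, 131 with acetaminophen and exosomes, 59.9 with caffeine and 166 with acetaminophen and caffeine, and at 7.23, 71.7 and 69.7 CPM with arsenic at 5 µM, 15 µM and 5 µM with copper. GPX2 stood at 105, 26, 79.4, 77.6, 57.8 and 21.9 CPM in the first 6 of these libraries and at 14.9, 42 and 115 CPM in the 3 arsenic libraries. Both were lowest with arsenic at 5 µM, and the arsenic libraries overlapped the others for both. GPX4 stood at 454, 384, 303, 613, 478 and 669 CPM in the libraries without arsenic and at 1160, 337 and 395 CPM with arsenic, so that the arsenic 5 µM library was its highest of the 9. None of the 3 was called for arsenic (log2 coefficients -0.74 for GPX1, -0.52 for GPX2 and 0.77 for GPX4, adjusted p = 0.821, 0.887 and 0.822 by edgeR). Without the control, the coefficients of GPX1 and GPX2 were 1.67 and 0.43, and without the arsenic 5 µM library that of GPX4 was -0.05. GENCODE 29 types GPX1 as a polymorphic pseudogene.

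The proportion of GPX4 to GPX1 was therefore far from the rest in 1 library. Per kilobase it was between 2.25 and 8.81 in the libraries without arsenic, 3.33 at 15 µM and 4.01 with copper, and 114 (71.1 to 196) with arsenic at 5 µM. Its value at 5 µM was 99.8 with the trends removed. GPX1 had 17 counts in that library, which sets the width of the interval.

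GGT1, the enzyme that begins the breakdown of extracellular glutathione, had 2 to 391 counts in a library. It stood at 16.4 CPM in the control, 2.11 with acetaminophen (3 counts), 9.85 with exosomes, 2.54 with acetaminophen and exosomes (2 counts), 45.8 with caffeine and 19.4 with acetaminophen and caffeine. In the arsenic libraries it was at 10.6, 27.3 and 40.1 CPM. GGT1 overlaps SNRPD3 and LRRC75B and has near-copies such as GGT2P and GGT3P, which had at most 3 counts in a library, so how its reads were assigned is uncertain. Each acetaminophen library was below its partner without the drug. The acetaminophen coefficient was -1.9 (SE 0.69) and the caffeine coefficient 2.19 (SE 0.81), with unadjusted p of 0.00891 and 0.0102 and adjusted p of 0.562 and 0.506 by edgeR, so neither was called.

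Against the control, the 3 arsenic libraries had different sets of members apart, and they share that control, so their ratios are given side by side. At 5 µM, 9 of 10 members were apart, 5 higher and 4 lower, where 31.4% of all genes were (16.4% higher, 15.0% lower). Ratios were 23 (14.9 to 37.2) for SLC7A11, 16.3 (11.5 to 23.7) for GCLM, 4.14 (3.6 to 4.79) for GSR, 3.61 (2.41 to 5.6) for GCLC and 2.56 (2.32 to 2.83) for GPX4. The lower 4 were SLC3A2 at 0.455, GSS at 0.159, GPX2 at 0.142 and GPX1 at 0.0531 (0.0301 to 0.0882). With the GC and length trends removed, the log2 ratios became 2.89 for SLC7A11 (4.52 before), 2.83 for GCLM (4.02 before), -2.27 for GPX1 (-4.23 before), 2.95 for GPX4 (1.36 before) and -0.5 for SLC3A2 (-1.13 before), and SLC3A2 was no longer apart.

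At 15 µM, 6 of 10 members were apart, 5 higher and 1 lower, where 30.9% of all genes were (16.5% higher, 14.4% lower). SLC7A11 had a ratio of 25.9 (16.9 to 42), GCLM 8.24 (5.82 to 12.1), SLC3A2 5.41 (4.75 to 6.19), GSR 2.69 (2.34 to 3.12) and GCLC 2.33 (1.54 to 3.63). GPX2 was lower, at 0.399 (0.305 to 0.523). GSS, GPX1, GPX4 and GGT1 were less than 2-fold apart. With the GC and length trends removed, 4 members were apart, and GCLC (log2 ratio 0.83) and GPX2 (-0.59, from -1.33) were not.

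With copper added to 5 µM arsenic, 5 of 10 members were higher than in the control and 0 lower, where 16.4% of all genes were apart (9.26% higher, 7.1% lower). SLC7A11 had a ratio of 8.79 (5.68 to 14.3), GCLM 5.23 (3.67 to 7.69), GSR 3.01 (2.61 to 3.48), SLC3A2 2.47 (2.15 to 2.84) and GGT1 2.44 (1.46 to 4.35). GPX2 and GSS, low with arsenic alone, had ratios of 1.09 (0.873 to 1.37) and 0.851 (0.693 to 1.05). After trend removal GGT1 (log2 ratio 0.98) was within 2-fold and the other 4 were still apart.

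**Figure D3:**
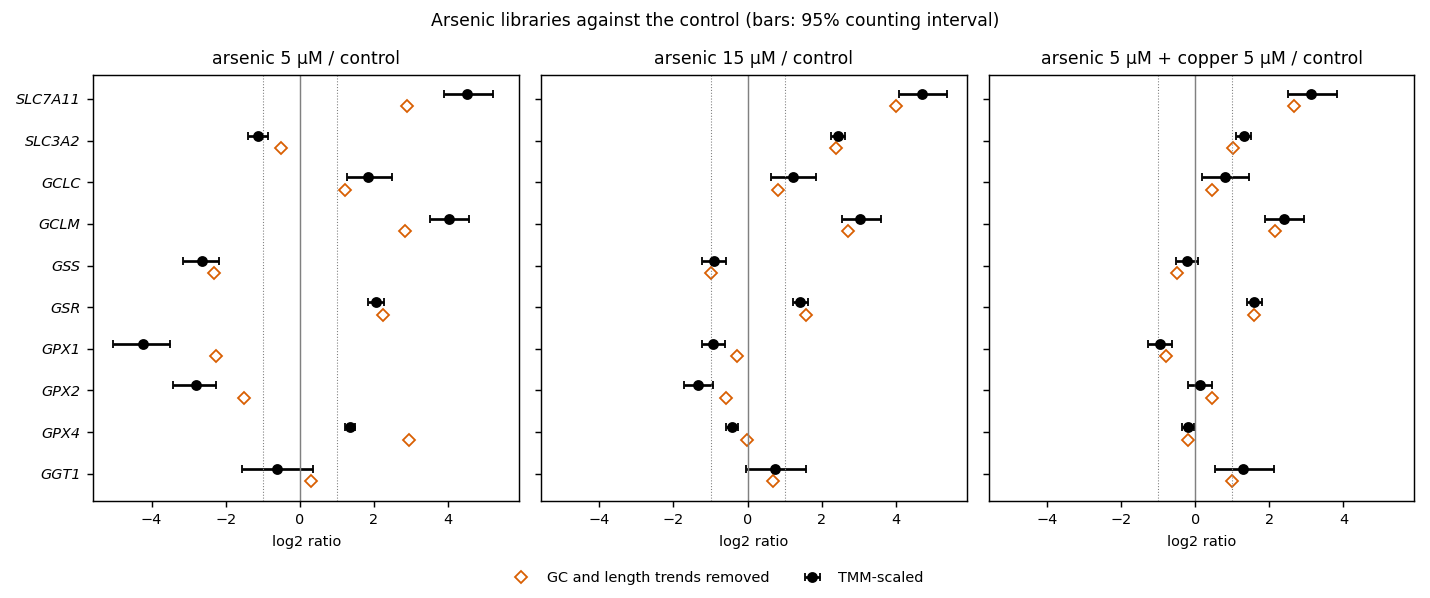
Log2 ratio of each arsenic library to the control for the 10 genes. Black points are TMM-scaled ratios with 95% counting intervals, open orange diamonds have the GC and length trends removed, and dotted lines mark 2-fold. SLC7A11, GCLM and GSR lie to the right of the 2-fold line in all 3 panels, and SLC3A2 lies left of 0 at 5 µM (-1.13) and right of it with copper (1.3).

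The arsenic libraries were also compared with each other. Between 15 and 5 µM, 6 of 10 members were apart, 5 higher and 1 lower at 15 µM, and 37.1% of all genes were (19.6% higher, 17.5% lower). GPX1 had a ratio of 9.92 (6.04 to 17.4), GSS 3.37 (2.46 to 4.71) and GPX4 0.289 (0.268 to 0.312), while SLC7A11 had 1.13 (1.04 to 1.22). With the GC and length trends removed, SLC7A11 went from a log2 ratio of 0.18 to 1.11 and became apart, GPX1 went from 3.31 to 1.98 and GPX4 from -1.79 to -2.97. GPX2 (0.94) and GGT1 (0.38) were then no longer apart. Between copper with 5 µM arsenic and 5 µM arsenic alone, 9 of 10 were apart, 5 higher and 4 lower, and 30.2% of all genes were (16.5% higher, 13.7% lower). Lower with copper were SLC7A11 at 0.383 (0.343 to 0.426), GCLM at 0.322 (0.288 to 0.359), GCLC at 0.481 (0.383 to 0.603) and GPX4 at 0.339 (0.316 to 0.364). Higher were GPX1 at 9.64 (5.86 to 16.9), GPX2 at 7.7 (5.42 to 11.3), SLC3A2 at 5.42, GSS at 5.36 (3.95 to 7.4) and GGT1 at 3.77. After removal of the GC and length trends, the log2 ratios of SLC7A11, GCLM and GCLC were -0.23, -0.67 and -0.77, all within 2-fold. That of GPX4 was -3.15. GPX1 (1.47), GPX2 (1.98), SLC3A2 (1.52) and GSS (1.8) were still higher and apart, and GGT1 (0.68) was within 2-fold.

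The dose term of the model compares 15 µM with both 5 µM libraries, with and without copper. Its copper term compares arsenic with copper against both arsenic libraries without copper. In the model, 0 of 10 members were called for an added effect of the 15 µM dose (1 member had an unadjusted p under 0.05, as had 10.1% of all genes, and DESeq2 called 0), where 1.09% of all genes were called by edgeR. SLC3A2 was the nearest, with a log2 coefficient of 1.89 (SE 0.87, adjusted p = 0.397 by edgeR). Without the library with arsenic and copper it was 3.58 and called (adjusted p = 0.0232 by edgeR), and without the arsenic 5 µM library it was 1.15. For copper, 0 of 10 were called, as were 0.0% of all genes (0 of 18237 by edgeR and 0 by DESeq2). At an unadjusted edgeR p under 0.05 were 1 member and 428 genes (2.35%). GPX2 had a copper coefficient of 2.01 (SE 0.83), with an unadjusted edgeR p of 0.0182 and an adjusted p of 1.

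Acetaminophen, which consumes glutathione in hepatocytes, was present in 3 libraries, each with a partner that lacked it. For its term 0 of 10 members were called by edgeR and 0 by DESeq2, where edgeR called 0.0219% of all genes. GGT1 was the 1 member at an unadjusted p under 0.05, as were 5.35% of all genes. The 3 pairs differed from one another. Against the control, 7 of 10 members were apart, 2 higher and 5 lower, where 25.2% of all genes were (13% higher, 12.1% lower). The ligase subunits were higher, GCLC at a ratio of 3.13 (2.04 to 4.94) and GCLM at 2.62 (1.77 to 3.98). Lower were SLC3A2 at 0.358 (0.284 to 0.448), GSS at 0.439 (0.329 to 0.581), GPX1 at 0.227 (0.158 to 0.32), GPX2 at 0.247 (0.165 to 0.362) and GGT1 at 0.128 (0.0241 to 0.444, from 3 counts against 17).

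Most of these ratios were nearer to 1 once the trends with base composition were taken out. With the GC and length trends removed, the log2 ratios were 0.97 for GCLC (1.64 before), 0.31 for GCLM (1.39 before), -0.15 for GPX1 (-2.14 before), -0.98 for GPX2 (-2.02 before) and -1.98 for GGT1 (-2.96 before). GPX4 went from -0.24 to 1.34 and SLC7A11 from 0.64 to -0.59, so both changed sign. GGT1 and GPX4 were then the 2 members apart.

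On the exosome background, 1 of 10 members was apart, where 10.4% of all genes were (5.22% higher, 5.17% lower): GPX4 was higher at a ratio of 2.02 (1.81 to 2.25). GCLC had a ratio of 0.929 (0.571 to 1.46) and GCLM 0.964 (0.631 to 1.43), with 24 and 31 counts in the library with both agents. After trend removal GPX4 (log2 ratio 0.85) was no longer apart and GGT1 (-2.0) was, from 2 counts. On the caffeine background, 4 of 10 were apart, 2 higher and 2 lower, where 25.6% of all genes were (12.6% higher, 13% lower). GPX1 had a ratio of 2.78 (2.49 to 3.1) and GSS 2.04 (1.85 to 2.25), and GPX2 had 0.378 (0.306 to 0.464) and GGT1 0.424 (0.338 to 0.528). GCLC stood just inside 2-fold at 1.94 (1.64 to 2.29). In this pair, removing the trends left GSS (log2 ratio 0.83) no longer apart, while GCLC (1.05) was. GPX2 and GGT1 were thus at least 2-fold lower with acetaminophen on the untreated and the caffeine backgrounds, GPX2 on the untreated one with a log2 ratio of -0.98 once the trends were removed.

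**Figure D4:**
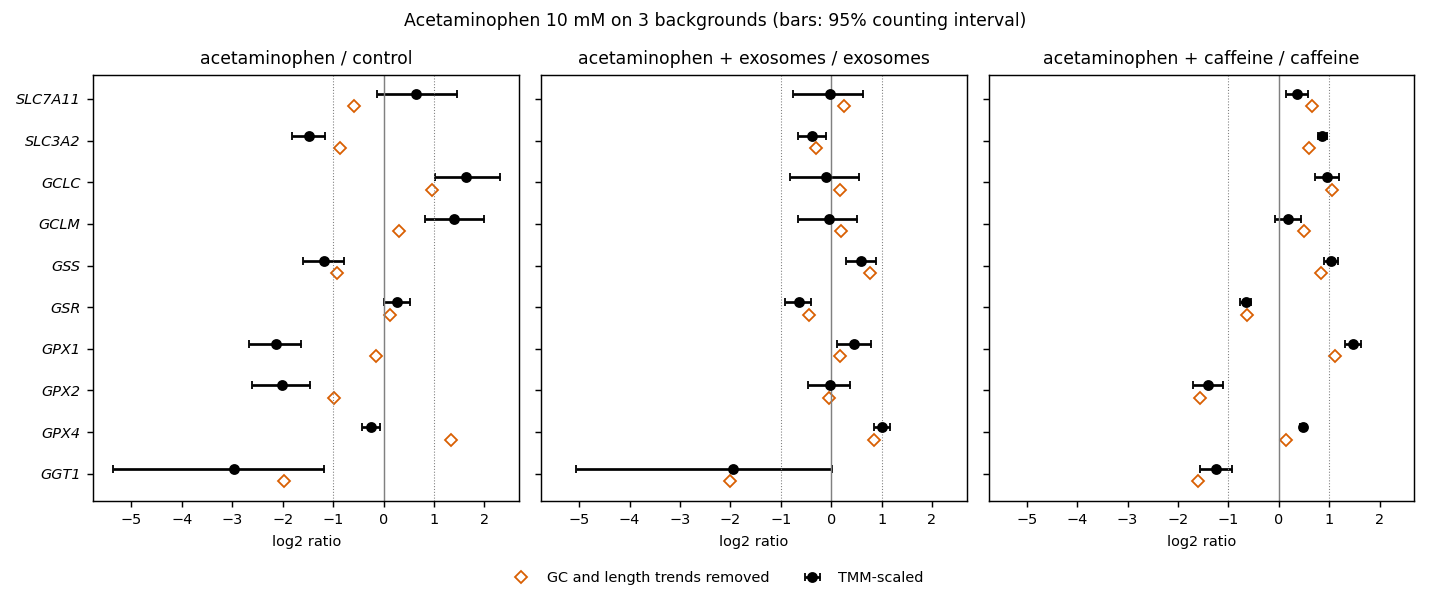
Log2 ratio of each acetaminophen library to its partner without acetaminophen for the 10 genes, on the untreated, exosome and caffeine backgrounds. Black points are TMM-scaled ratios with 95% counting intervals, open orange diamonds have the GC and length trends removed, and dotted lines mark 2-fold. GPX1 lies at -2.14 on the untreated background and at 1.47 on the caffeine background, and GGT1 lies left of 0 in all 3 panels.

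With serum exosomes alone, each member was within 2-fold of the control. In this pair 0 of 10 were apart, where 5.01% of all genes were (3.58% higher, 1.44% lower), and the ratios ran from 0.601 (GGT1) to 1.47 (SLC7A11). Exosomes added to acetaminophen gave 5 of 10 apart, 3 higher and 2 lower, where 19.1% of all genes were (10.2% higher, 8.89% lower). Higher were GPX1 at 4.24 (2.95 to 6.18), GPX2 at 2.99 (1.95 to 4.62) and GSS at 2.74 (2.06 to 3.67), and lower were GCLC at 0.375 (0.231 to 0.586) and GCLM at 0.472 (0.307 to 0.706). With the trends removed, GSS was the 1 member still apart (log2 ratio 1.3), and GPX1 was at 0.38. For the exosome term edgeR called 0 of 10 members and 0 of the 18237 genes (0.0%), and DESeq2 called 0 as well. At an unadjusted edgeR p under 0.05 were 0 members and 113 genes (0.62%).

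Caffeine, a methylxanthine that inhibits phosphodiesterases and blocks adenosine receptors, was present in 2 libraries. Against the control, 3 of 10 members were apart, 2 higher and 1 lower, where 20.2% of all genes were (11.6% higher, 8.63% lower). GGT1 had a ratio of 2.79 (1.72 to 4.84), SLC7A11 the ratio given above, and GPX1 0.44 (0.365 to 0.534). With the trends removed, the log2 ratios were 1.43, 0.56 and -0.59, and GGT1 was the 1 member still apart. Added to acetaminophen, caffeine gave 5 of 10 apart, 4 higher and 1 lower, where 33.8% of all genes were (18.8% higher, 15.0% lower). GGT1 had a ratio of 9.22 (3.07 to 45.4, against 3 counts), GPX1 5.39 (3.98 to 7.47), SLC3A2 4.79 (3.98 to 5.82) and GSS 3.02 (2.41 to 3.83), and GCLM was lower at 0.467 (0.371 to 0.59). With the trends removed, the log2 ratios in this pair were 1.8 for GGT1, 0.68 for GPX1, 1.28 for SLC3A2, 0.96 for GSS and -0.08 for GCLM, and SLC7A11 went from 0.89 to 1.81. SLC7A11, GGT1 and SLC3A2 were then the 3 members apart. For the caffeine term 0 of 10 members were called by edgeR or by DESeq2, where edgeR called 0.0823% of all genes. GGT1 alone among the members had an unadjusted p under 0.05, as had 7.31% of all genes.

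The likeness of the members' levels across the 9 libraries is described by Pearson's r of log2(CPM + 1), over libraries that differ in depth and base composition. GCLM correlated with SLC7A11 (r = 0.92) and GSR (r = 0.92), and GSS with GPX1 (r = 0.98). GCLC correlated with GCLM at r = 0.75, and SLC7A11 with SLC3A2 at r = 0.46. GSS and GPX1 were low together in the acetaminophen and arsenic 5 µM libraries, whose levels fall with GC content, and their transcripts have 54.2% and 64.2% GC. The part of base composition in this likeness was not tested.

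Among 10984 genes whose mean reached 5 CPM, those most like SLC7A11 over the 9 libraries were MAFK (r = 0.975), KDM5C (0.974), SLC35F6 (0.973), FLYWCH1 (0.966) and SAMD4B (0.962). Those most like GCLM were MAX (0.983), METTL4 (0.972), DNAJB4 (0.97), MTHFD2 (0.964) and ATP6V1E1 (0.96). For GCLC they were WDR26 (0.966), SUN1 (0.961), MFSD14B (0.952), SSH2 (0.942) and RP2 (0.94). SLC7A11 and GCLM were far higher in 3 of the 9 libraries than in the others, and the 9 points of each r share depth and base composition within a library.

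The wider pathway was read from a list of 58 genes, of which 57 matched an identifier and 56 were tested. For arsenic, 36 had coefficients above 0 and 20 below, where 52.5% of all genes were above 0. The median log2 coefficient was 0.28 beside 0.07 over all genes. Of the 56, 1 was called by edgeR, where 0.494% of all genes were. That gene was CHAC1, an enzyme that degrades glutathione inside the cell and a target of ATF4. CHAC1 stood at 10.6 CPM in the control, 5.62 with acetaminophen, 4.48 with exosomes, 11.4 with acetaminophen and exosomes, 19.2 with caffeine and 82.7 with acetaminophen and caffeine, and at 29.3, 397 and 97.9 CPM with arsenic at 5 µM, 15 µM and 5 µM with copper. It rose with arsenic (log2 coefficient 4.83, SE 0.97, adjusted p = 0.014 by edgeR), although the library with acetaminophen and caffeine was above the arsenic 5 µM library. Of 15 alternatives 10 kept the call, and the adjusted p was 0.662 without the control, 0.234 without acetaminophen, 0.148 without acetaminophen with exosomes, 0.0509 with DESeq2 size factors and 0.0609 with protein-coding genes alone. With 1 library left out the coefficient ran from 3.39 (without arsenic 15 µM) to 6.75 (without the control). CHAC1 was also called for the added effect of the 15 µM dose (log2 coefficient 2.64, SE 0.76, adjusted p = 0.046 by edgeR). That call rests on the 15 µM library, which also enters the arsenic term, and no range over alternatives is given for it. For this dose term edgeR called 1.09% of all genes, and 17 to 775 genes with 1 library left out.

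By group, the genes that supply cysteine and methionine had 10 of 13 coefficients above 0 for arsenic (median 0.57), where 52.5% of all genes had one above 0. Of these 13 genes edgeR called 0, and 4 had an unadjusted p under 0.05, as had 9.16% of all genes. CTH, the cystathionine lyase that releases cysteine, went from 9.65 CPM in the control to 37.4, 257 and 66.8 CPM in the arsenic libraries (log2 coefficient 3.48, SE 0.87, adjusted p = 0.0513 by edgeR, and 4.36e-05 to 0.687 over 15 alternatives). SLC7A5, an amino acid exchanger that also pairs with SLC3A2, went from 89.7 CPM to 113, 950 and 299 CPM (2.76, adjusted p = 0.144 by edgeR, and 0.000541 without the arsenic 5 µM library in a range up to 0.687). Like SLC3A2, all 3 of CHAC1, CTH and SLC7A5 were highest at 15 µM. In the glutathione S-transferases, which conjugate glutathione to foreign compounds, 9 of 15 coefficients were above 0 (median 0.21), 0 were called by edgeR and 2 had an unadjusted p under 0.05, beside the same shares of all genes.

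Among listed genes whose mean reached 5 CPM, the lowest arsenic coefficients were those of MGST2 and MGST3, microsomal enzymes related to leukotriene C4 synthase, and GLRX5, a mitochondrial glutaredoxin of iron-sulfur cluster assembly. MGST2 had 94.6 CPM in the control, against 7.23, 10 and 14.5 CPM with arsenic, but it was also low with acetaminophen (11.2 CPM) and with acetaminophen and caffeine (11.7 CPM). MGST3 went from 24.1 CPM to 2.98, 5.74 and 6.68 CPM, and GLRX5 from 30.9 CPM to 15.3, 8.61 and 15.2 CPM. Their log2 coefficients were -2.59, -1.8 and -1.52, and none was called (adjusted p = 0.0675, 0.363 and 0.476 by edgeR). For MGST2 the adjusted p was 0.0106 without the arsenic 5 µM library, the lowest in a range up to 0.875 over 15 alternatives, and the coefficient was -0.83 without the control.

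Of the remaining groups, the genes that use or export glutathione had 10 of 14 arsenic coefficients above 0, those of glutathione breakdown and the gamma-glutamyl cycle 4 of 10 with CHAC1 called, and the other peroxidases with peroxiredoxin 6 had 3 of 4, beside 52.5% of all genes. For caffeine, 37 of 56 coefficients were above 0 (median 0.52, beside 0.12 over all genes), where 54.2% of all genes were. For caffeine edgeR called 0 of the 56, and 8 had an unadjusted p under 0.05, as had 7.31% of all genes. Among those whose mean reached 5 CPM the highest were GSTA2 (2.93), CHAC1 (2.29) and ABCC3 (2.22), and the lowest GLRX3 (-1.29), ADH5 (-1.18) and GSTO1 (-1.16), with adjusted p between 0.359 and 0.767 by edgeR. The ADH5 coefficient was 0.45 without the acetaminophen library. GSTA2, an alpha-class transferase, stood at 32.8 CPM (280 counts) with caffeine and at 2.45 CPM with acetaminophen and caffeine. With 1 library left out, GSTA2 had a caffeine coefficient between 1.69 (without the control) and 3.57 (without the acetaminophen library). Its reads may be shared with the near-identical GSTA1.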

How the data were processed

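Total RNA depleted of ribosomal RNA was sequenced on an Ion Torrent Proton, per the labels. The authors deposited whole-number read counts per Ensembl gene, made with TopHat2 2.0.13 and HTSeq 0.6.1 on GRCh37, per the submitters' processing notes. The strand setting and annotation were not given in the sources used here. Reads of overlapping and antisense genes may therefore be assigned either way. The summary lines of HTSeq were left out.

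Symbols came from the reference gene tables, and transcript length and GC content from GENCODE 29. Genes reaching 1 CPM in 2 or more libraries were kept (18237) and scaled by TMM (edgeR 4.0.16, R 4.3.3). An additive edgeR quasi-likelihood model held terms for acetaminophen, exosomes, caffeine and arsenic (5 coefficients, 4 residual degrees of freedom). The arsenic term was the same for both doses and for arsenic with copper. The 15 µM dose, copper and the combinations with acetaminophen were each 1 extra term, added alone. The dose term thus compares 15 µM with 5 µM with and without copper. The copper term compares arsenic with copper against both doses without it. Adjusted p-values are Benjamini-Hochberg over all tested genes, and the SE is the absolute log2 coefficient divided by the square root of F. The p-values set each coefficient against the departure of these 9 libraries from additive effects, not against variation between cultures. For 12 library pairs, ratios of scaled CPM have exact conditional binomial intervals, and 0.5 counts were added for the 2-fold rule. GC and length trends were removed by a smooth fit per library. Scripts were tested on simulated counts. Alternatives were DESeq2 1.42.0, its size factors, no count filter, protein-coding genes alone, trends removed, each library left out, and a 1.5-fold rule.

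The members, pathway list and markers were chosen with earlier results of these data known. All 10 members are named. From the pathway list, called genes and up to 3 per direction for arsenic and caffeine with a mean of at least 5 CPM are named. The 5 genes most like SLC7A11, GCLM and GCLC by Pearson's r of log2(CPM + 1) are named.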

Additional observations from a re-analysis of the deposited data

Results flagged for a closer look

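Several members were at least 2-fold apart in opposite directions under the same agent on different backgrounds. With 1 library per condition, none of these differences passed a test, and the opposite ratios themselves were not tested against variation between cultures.

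For acetaminophen, GSS had a log2 ratio of -1.19 over the control and of 1.03 on the caffeine background, and GPX1 had -2.14 and 1.47 in the same pairs. For caffeine, GPX1 had a log2 ratio of -1.18 over the control and of 2.43 when added to acetaminophen. The extra term for acetaminophen with caffeine gave GPX1 a log2 coefficient of 2.3 (SE 1.37, unadjusted p = 0.094 and adjusted p = 1 by edgeR). After the GC and length trends were removed, GPX1 stood at -0.15 for acetaminophen over control. It stood at -0.59 for caffeine over control and at 0.68 for caffeine added to acetaminophen, and all of these were within 2-fold. For acetaminophen on the caffeine background GPX1 was at 1.11 and still apart. GSS was then at -0.92 for acetaminophen over control and at 0.83 on the caffeine background, both within 2-fold.

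For arsenic at 5 µM, SLC3A2 had a log2 ratio of -1.13 over the control without copper and of 1.3 with it. Its copper coefficient was -0.25 (SE 1.03, adjusted p = 1 by edgeR). That coefficient compares arsenic with copper against both arsenic libraries without copper, at 5 and 15 µM, not against 5 µM alone. With the trends removed, the SLC3A2 ratios to the control were -0.5 and 1.02 on the log2 scale.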

How the results depend on the processing

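No paired analysis was possible because every condition has 1 library, so the groups share fewer than 2 replicate numbers. No call has a replicate behind it, and depth limits GGT1 most, with 2 and 3 counts in the libraries with acetaminophen alone or with exosomes. DESeq2 size factors shifted log2 ratios of library pairs by -0.18 to 0.15. The cause of the changes below was not tested.

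The number of genes called was 4 for acetaminophen, 15 for caffeine, 90 for arsenic and 198 for the 15 µM dose. Without the count filter it was 46, 49 and 269 for the first 3 of these, with DESeq2 52, 56, 175 and, for the dose, 96. DESeq2 size factors gave 7 for caffeine and 24 for arsenic, protein-coding genes alone 7, 12 and, for the dose, 87, and removal of the trends 21 for acetaminophen, 30 for arsenic and 527 for the dose. Without the acetaminophen and arsenic 5 µM libraries together the numbers were 58 for acetaminophen, 72 for caffeine and 1054 for the dose and for copper, which are then the same contrast, with 1 member called. DESeq2 called 2 members for arsenic.

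Leaving out 1 library at a time gave 0 to 179 genes for acetaminophen, 0 to 3 for exosomes, 0 to 221 for caffeine, 0 to 780 for arsenic, 17 to 775 for the dose and 0 to 52 for copper, with the highest values without the arsenic 5 µM library except for the dose (without arsenic with copper) and copper (without arsenic 15 µM). Members called ran from 0 to 3 for arsenic and from 0 to 2 for the dose. Arsenic coefficients changed sign in these fits for GSS (-0.99 to 1.06), GPX1 (-1.41 to 1.67), GPX2 (-1.52 to 0.43) and GPX4 (-0.05 to 1.48), the first 3 without the control and GPX4 without arsenic 5 µM. GPX4 was at -0.4 without both libraries named above. The caffeine coefficient of ADH5 ran from -2.4 to 0.45, above 0 without acetaminophen, and was 0.29 without both. SLC7A11 kept a positive arsenic coefficient in all 15 alternatives (3.67 to 4.44), as did GCLM (2 to 3.37).

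With the trends removed, members apart numbered 2 for acetaminophen over control, 1 for exosomes added to acetaminophen, 1 for caffeine over control, 3 for caffeine added to acetaminophen and 5 for copper added to arsenic. A 1.5-fold rule gave 3 for acetaminophen on exosomes, 7 for acetaminophen on caffeine and 5 for caffeine over control. The share of all genes apart was not counted with the trends removed or under the 1.5-fold rule. These numbers therefore describe the members alone.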
